A study of Homo sapiens with 48 samples.

Results

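The spliceosome recognises introns through small nuclear ribonucleoproteins (snRNPs), and 10 genes that encode their core and particle-specific proteins are described here. They are SNRPB, SNRPD1, SNRPD2, SNRPD3, SNRPE and SNRPF of the Sm ring, SNRPA and SNRPC of the U1 snRNP, and SNRPA1 and SNRPB2 of the U2 snRNP. They were chosen by gene name, and all 10 were found among the 19509 entries of the gene table that hold counts. A total of 9 were among the 9991 genes tested, which have at least 10000 counts over all libraries, while SNRPE lay just under that minimum with 9867 counts. The event table lists 66 splicing events in 9 of the genes and none in SNRPA1.

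The RNA came from IMR90 ER:RAS cells, human lung fibroblasts (IMR90) that carry oncogenic RAS G12V fused to the ligand-binding domain of the oestrogen receptor. The cells were given 4-hydroxytamoxifen (4OHT), which activates the fusion and drives senescence, or DMSO as the control, were transfected with siRNA on day 6 and were collected after 2 further days in medium with 0.5% serum. The 48 libraries form 6 groups of 8, in which DMSO or 4OHT was combined with non-targeting siRNA (siNT1 and siNT2), siRNA against SF3B1 (siSF3B1-13 and siSF3B1-16) or siRNA against RBM39 (siRBM39-06 and siRBM39-08). According to the sample titles each siRNA and treatment has 4 replicates. The title of 4 libraries from 4OHT-treated cells names siNT2 where their treatment label names siNT1, and the title was used. Every group carries the RAS fusion, comes from the same cell line and spent its last days in low serum, so no group stands for cells without the construct. Nothing in the labels says that replicates are separate cultures, and p-values therefore cover only the spread between these libraries. The libraries are bulk RNA, in which fewer cells of a type and less RNA per cell cannot be told apart.

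Each spliceosomal snRNP is assembled on a short uridine-rich RNA. Around most of these RNAs, U1 and U2 included, the Sm proteins B, D1, D2, D3, E, F and G close into a ring. The U1 snRNP binds the 5′ splice site and the U2 snRNP binds the branch point, where SF3B1, a subunit of the U2 snRNP, clamps the paired branch-point helix. RBM39 is a splicing factor related to U2AF, the protein that marks the 3′ splice site for U2. The gene SNRPB is known for an alternative exon with a premature stop codon, which sends the transcripts that include it to nonsense-mediated decay and lets the amount of Sm protein act back on its own mRNA.

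The SNRPB exon and an SNRPB2 exon carry the splicing results, and their bases are given here for that reason, as read from the GENCODE transcripts on GRCh37 in the direction of transcription. The SNRPB exon is 124 nt long, lies on the minus strand at chr20:2447838-2447961, and is exon 3 of SNRPB-203, which is annotated as a target of nonsense-mediated decay. It adds 55 coding bases and then closes the reading frame, so that translation from the annotated start ends after 70 codons. The first 58 of its bases follow, with the stop codon in capitals.
SNRPB exon: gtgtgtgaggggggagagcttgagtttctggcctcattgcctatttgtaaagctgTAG
The SNRPB2 exon is 51 nt long, lies on the plus strand at chr20:16719497-16719547, and is coding exon 5 of the protein-coding transcripts SNRPB2-201 and SNRPB2-202. It spans 17 whole codons, so that skipping it leaves the reading frame intact.
SNRPB2 exon: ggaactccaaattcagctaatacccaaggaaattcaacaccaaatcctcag

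Depth was 31467221 to 52734636 counts per library, with a median of 39656598. Knockdown was seen in every library, since SF3B1 averaged 356 CPM in DMSO siNT and 32.6 CPM in DMSO siSF3B1, and 326 and 27.1 CPM in the corresponding 4OHT groups (CPM is the count of a gene scaled to a common library total). RBM39 averaged 169 and 27.2 CPM in DMSO siNT and DMSO siRBM39, and 119 and 16.2 CPM in the 4OHT groups, and for neither target did knockdown and siNT libraries overlap. All 9 fibroblast markers examined were expressed in each group, with a summed level of 11533 to 58902 CPM per library. The gene table held 6 of 7 epithelial markers, with a summed level of at most 81.9 CPM, and 3 of 4 endothelial markers, at most 8.37 CPM, while the summed level of 5 leukocyte markers was at most 114 CPM, of which CD68 alone reached 113 CPM and PTPRC no more than 0.195 CPM. The summed level of 12 proliferation markers had a median of 273, 198 and 284 CPM with siNT, siSF3B1 and siRBM39 in DMSO and of 127, 123 and 138 CPM in 4OHT, and its part in the results on the snRNP genes was not tested.

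A single library stood apart from its group over all genes tested. Replicate 4 of siRBM39-08 in 4OHT differed by a median of 0.542 from the mean of the other libraries of its siRNA and treatment (absolute log2 difference over all genes tested). No other library exceeded 0.239, the value of replicate 1 of siRBM39-08 in 4OHT, whose comparison includes the library that stood apart. The snRNP transcripts lay high in replicate 4, with a median log2 difference of 1.01 from the other libraries of its siRNA and treatment. Its summed epithelial markers were the highest of all libraries at 81.9 CPM, where the other 7 libraries of the group had 6.59 to 13 CPM. Its RBM39 level was 18.3 CPM against 13.7 to 18.1 CPM in the rest of the group, and the part of these features in its snRNP levels was not tested. Most results on siRBM39 in 4OHT are therefore given with and without it, and those given once include it.

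The 10 transcripts differed in level by an order of magnitude in control cells. On the length-corrected cRPKM scale, DMSO siNT cells had the most SNRPD2 at 69.6 ± 3.02 (SD, n = 8), followed by SNRPC at 58.5 ± 3.41 and SNRPB at 47.1 ± 3.55. SNRPD3 at 30.5 ± 1.51, SNRPA at 29.3 ± 0.915 and SNRPB2 at 26.8 ± 1.64 formed a middle group in which each overlapped its neighbour. SNRPD1 at 19 ± 2.00 overlapped SNRPA1 at 17.7 ± 1.39, and SNRPF at 12.3 ± 0.747 and SNRPE at 6.92 ± 1.05 were lowest. In 4OHT siNT cells SNRPA1 moved from rank 8 to rank 4, with 54.2 ± 2.06, behind SNRPD2 at 77.4 ± 4.87, SNRPB at 69.8 ± 6.22 and SNRPC at 59.6 ± 3.78, with overlap between neighbours among these 4. SNRPA went from rank 5 to rank 8, with 20.3 ± 1.15. The Sm proteins sit in the ring in equal number, so the spread among the Sm transcripts is a spread of RNA levels only, and SNRPE, SNRPF and SNRPB have close pseudogenes or a near-identical relative (SNRPN) with which reads may be shared, which makes their levels less certain.

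The set had its highest median changes with SF3B1 knockdown. In DMSO, siSF3B1 against siNT raised 8 of the 9 tested genes and lowered SNRPA1, where 36.5% of all tested genes rose and 36.2% fell (72.7% in either direction) at an adjusted p under 0.05 in edgeR's quasi-likelihood test. The median log2 fold change of the 9 was 0.63 against 0.02 over all genes tested, and in 8 of the 9 the knockdown and control libraries did not overlap, as in 54.9% of all genes. In 4OHT, siSF3B1 raised 6 and lowered 1, with 2 not called, where 39.4% of all genes rose and 37.6% fell (77.0% in either direction). The median of the 9 was then 0.45 against 0.03 over all genes, and 8 showed no overlap, as did 68.9% of all genes.

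RBM39 knockdown also raised most of the set, with smaller medians. In DMSO it raised 8 of the 9, with SNRPA not called, against 23.9% of all genes that rose and 46.1% called either way, and the median of the 9 was 0.32 against 0.02 over all genes. Only 3 of the 9, SNRPB, SNRPD3 and SNRPF, showed no overlap between libraries, as did 20.5% of all genes. With siRBM39-08 alone 5 of these 8, SNRPC, SNRPD1, SNRPD2, SNRPD3 and SNRPF, were not called (adjusted p = 0.0505 to 0.615). The siRBM39-06 libraries in DMSO were split. In replicates 1 and 3 the median log2 difference of the set from the other libraries of that siRNA and treatment was 0.36 and 0.23. In replicates 2 and 4 it was -0.25 and -0.31. SNRPB was at 94.9 and 85.3 CPM in replicates 1 and 3 and at 63.4 and 64.5 CPM in replicates 2 and 4. In 4OHT, siRBM39 raised 7 and lowered SNRPA1, where 32.2% of all genes rose and 24.3% fell (56.4% either way), with a median of 0.28 against 0.05 over all genes. SNRPA1 alone showed no overlap, as did 25.1% of all genes. Without the library that stood apart, 3 rose (SNRPA, SNRPB and SNRPC), SNRPA1 fell and the other 5 were not called, where 33.1% of all genes rose and 27.1% fell, and the median of the 9 was 0.12 against 0.04 over all genes. The siSF3B1 and siRBM39 comparisons share their siNT libraries, so their results are not independent of each other.

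RAS activation alone gave a mixed picture. In siNT cells, 4OHT raised 5 of the 9, namely SNRPA1, SNRPB, SNRPD3, SNRPD1 and SNRPB2, lowered SNRPA and left SNRPC, SNRPD2 and SNRPF uncalled. Of all genes tested, 39% rose and 39.1% fell, so that 78.1% were called, and the share of the set that was called does not exceed that background. The median log2 fold change of the 9 was 0.17 against 0.00 over all genes, and 4 of the 9 showed no overlap, against 71.4% of all genes.

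**Figure D1:**
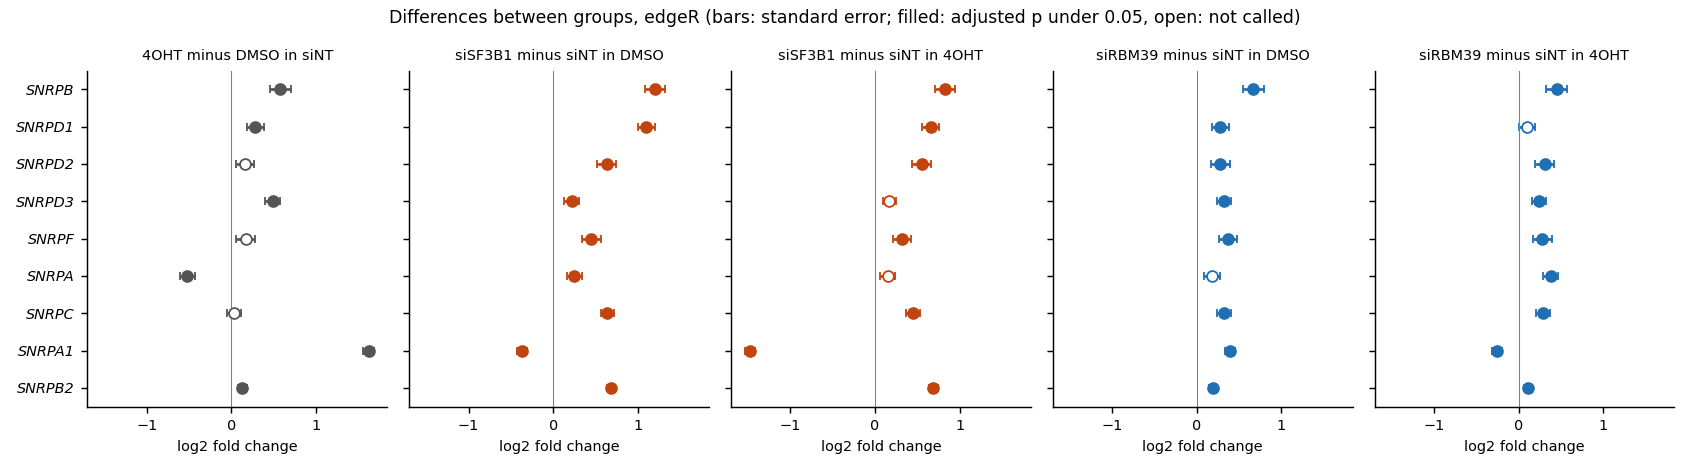
log2 fold change of the 9 tested genes in 5 comparisons, with bars of 1 standard error from edgeR; filled points passed an adjusted p of 0.05 and open points did not. SNRPA1 rises by 1.62 with 4OHT and falls by 1.48 with siSF3B1 in 4OHT, where the points of the Sm genes lie above 0, and with siSF3B1 in DMSO SNRPB rises most, by 1.2.

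Among the ring proteins, SNRPB, which encodes Sm B and B′ and lies at chr20:2442280-2451499 (GRCh37), rose in all 5 comparisons. DMSO siNT libraries held 39.1 to 47.8 CPM of it (median 42.8) and 4OHT siNT libraries 57.7 to 71.0 (63.4). After SF3B1 knockdown the range was 88.3 to 116 CPM under DMSO (96.6) and 101 to 131 under 4OHT (113). Every 4OHT siNT library lay above every DMSO siNT library, and both siSF3B1 groups lay above both siNT groups. With 4OHT the log2 fold change was 0.58 ± 0.12 (SE, adjusted p = 3.05e-05). With siSF3B1 it was 1.2 ± 0.12 in DMSO (230% of the control, adjusted p = 3.03e-12) and 0.83 ± 0.12 in 4OHT (178%, adjusted p = 2.83e-08).

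In the siRBM39 groups SNRPB ran from 55.9 to 94.9 CPM in DMSO (median 64.0) and from 61.0 to 166 CPM in 4OHT (79.8). The DMSO siRBM39 libraries lay wholly above the DMSO siNT libraries, while the 4OHT siRBM39 libraries overlapped their controls. The log2 fold change was 0.67 ± 0.12 in DMSO (adjusted p = 8.45e-06) and, for 4OHT, 0.45 ± 0.12 (adjusted p = 0.0013). Without the library that stood apart the highest 4OHT siRBM39 value of SNRPB was 87.2 CPM and the change was 0.25 ± 0.09 (adjusted p = 0.00975).

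The premature-stop exon of SNRPB (event HsaEX0060708, chr20:2467192-2467315 in the GRCh38 coordinates of the event table) was present in a small share of reads, which was lowest where SNRPB was highest. Its per cent spliced-in (PSI, the share of reads that include it) ran from 1.30 to 3.25 in DMSO siNT (median 2.39) and from 0.26 to 2.26 with 4OHT and siNT (0.895). After SF3B1 knockdown it ran from 0 to 0.73 under DMSO (0.23) and from 0 to 0.11 under 4OHT (0). In DMSO siRBM39 it ran from 0.12 to 1.14 (0.575) and in 4OHT siRBM39 from 0 to 0.61 (0.435). Every DMSO siSF3B1 and DMSO siRBM39 library lay below every DMSO siNT library, every 4OHT siSF3B1 library lay below every 4OHT siNT library, and the siNT groups of the 2 treatments overlapped. Of the transcripts annotated with this exon, SNRPB-203 is a target of nonsense-mediated decay and SNRPB-209 is a retained-intron transcript. The authors caution that targets of this decay are poorly detected in their RNA-seq. The PSI is therefore a share of the RNA that remained, not of all splicing, and the part of decay in its differences was not tested.

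The 6 group means of SNRPB level and of exon PSI ran in exactly opposite order. They were 42.9 CPM and a PSI of 2.40 ± 0.579 (SD, n = 8) in DMSO siNT, 64.0 CPM and 1.14 ± 0.726 in 4OHT siNT, 68.4 CPM and 0.705 ± 0.376 in DMSO siRBM39, 87.5 CPM and 0.319 ± 0.273 in 4OHT siRBM39, 98.7 CPM and 0.285 ± 0.284 in DMSO siSF3B1, and 114 CPM and 0.0388 ± 0.0536 in 4OHT siSF3B1. Without the library that stood apart, 4OHT siRBM39 averaged 76.4 CPM and kept its place in the order. The order is a description of 6 groups, neighbours in it overlap in PSI, and level and PSI come from the same libraries. Inclusion reads were fewer and exclusion reads more, since over 8 libraries they summed to 31.5 and 1290.5 in DMSO siNT, to 9.18 and 2955 in DMSO siSF3B1 and to 1.40 and 3475 in 4OHT siSF3B1.

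**Figure D2:**
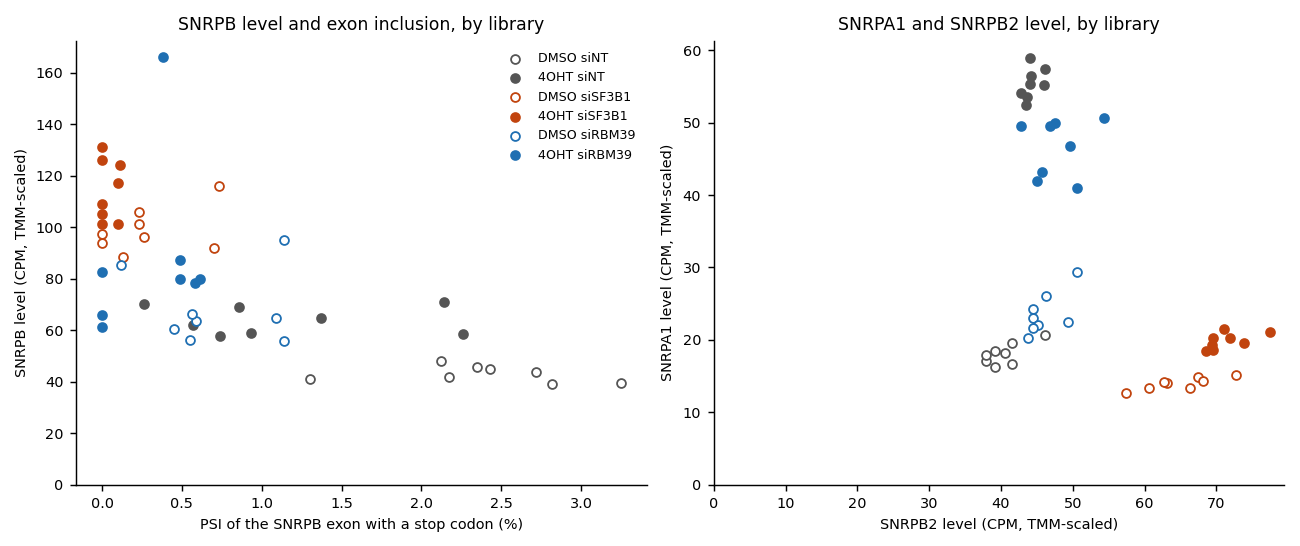
Left, SNRPB level (CPM) against the PSI of its premature-stop exon (%), and right, SNRPA1 level against SNRPB2 level (both CPM), with 1 point per library, open for DMSO and filled for 4OHT, grey for siNT, orange for siSF3B1 and blue for siRBM39. The DMSO siNT libraries lie at low SNRPB and at a PSI of 1.30 to 3.25, the 4OHT siSF3B1 libraries at high SNRPB and at most 0.11, and on the right the siSF3B1 groups combine the highest SNRPB2 with low SNRPA1.

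The range of the SNRPB exon over all libraries, from 0 to 3.25, is under the minimum of 5 that the main splicing test requires, so it was tested in a fit over 46428 exons and introns with no minimum range or difference, a setting added after the data were seen. In that limma fit PSI fell by 2.11 points with siSF3B1 in DMSO (adjusted p = 1.17e-09, where 15.2% of events were called) and, for 4OHT, by 1.10 points (adjusted p = 4.16e-06, 18.7% called). It fell by 1.69 points with siRBM39 in DMSO (adjusted p = 1.36e-05, 3.05% called). These 3 calls held with each siRNA alone, with each siNT alone and without each replicate number. The falls by 1.25 points with 4OHT (adjusted p = 0.0139, 0.396% called) and by 0.82 points with siRBM39 in 4OHT (adjusted p = 0.00746, 3.11% called) did not. With 4OHT the adjusted p for SNRPB was 0.0612 to 0.167 on leaving out any replicate number and 1.00 with siNT1 alone, where the 4OHT siNT1 libraries had a PSI of 0.86 to 2.26 and the 4OHT siNT2 libraries one of 0.26 to 0.93. For siRBM39 in 4OHT the call was lost under 5 of 11 alternatives, the adjusted p being 0.74 with siNT2 alone, 0.052 and 0.0971 with siRBM39-06 and siRBM39-08 alone and 0.22 and 0.0728 without the replicates numbered 1 and 4, while without the library that stood apart the fall was 0.83 points (adjusted p = 0.0101).

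A PSI of 0 for SNRPB is limited by the reads behind it. In 4OHT siSF3B1 5 of 8 libraries had no inclusion read among 341 to 486 reads, which allows a PSI of up to 0.617 to 0.88 per library for counting error alone. The 1787 nt intron around this exon (HsaINT0156069) was spliced out in nearly all reads, with a mean retention of 0.771% ± 0.395 in DMSO siNT and 0.0862% ± 0.0991 in DMSO siSF3B1, and in the same fit its retention fell by 0.69 points with siSF3B1 in DMSO (adjusted p = 3.25e-06), by 0.56 with siRBM39 in DMSO (adjusted p = 0.000845) and by 0.62 with 4OHT (adjusted p = 0.000665). The call with siRBM39 was lost without the replicates numbered 2 (adjusted p = 0.0547), and the call with 4OHT was lost without the replicates numbered 2 (adjusted p = 0.16), without those numbered 4 (adjusted p = 0.0972) and with siNT1 alone (adjusted p = 0.0535).

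SNRPD1 (chr18:19192275-19213485), which encodes Sm D1, the partner of D2 in the ring, followed SNRPB with siSF3B1. DMSO siNT libraries held 25.2 to 33.7 CPM of it (median 28.7) and 4OHT siNT libraries 32.7 to 36.4 (35.1). After SF3B1 knockdown the range was 53.3 to 65.0 CPM under DMSO (62.8) and 49.9 to 62.3 under 4OHT (54.7). The siSF3B1 libraries lay above all siNT libraries of their treatment. The log2 fold change with siSF3B1 was 1.10 ± 0.10 in DMSO (adjusted p = 1.26e-13) and, for 4OHT, 0.66 ± 0.10 (adjusted p = 6.73e-08). With 4OHT it was 0.28 ± 0.10 (adjusted p = 0.0102) and with siRBM39 in DMSO 0.28 ± 0.10 (adjusted p = 0.017), but the former was not called with siNT1 alone (adjusted p = 0.301) and the latter not under 5 of 18 alternatives, among them that without replicate 1 of siRBM39-06 (adjusted p = 0.0504). With siRBM39 in 4OHT the change of 0.10 ± 0.10 was not called and was -0.07 ± 0.07 without the library that stood apart.

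SNRPD2 (chr19:46190718-46195827), Sm D2, averaged 48.1 ± 2.18 CPM in DMSO siNT and 53.7 ± 3.36 with 4OHT and siNT, and after SF3B1 knockdown 74.6 ± 5.74 under DMSO and 78.8 ± 6.56 under 4OHT. Both siSF3B1 groups lay above their controls without overlap, with log2 fold changes of 0.63 ± 0.11 in DMSO (adjusted p = 3.24e-06) and, for 4OHT, 0.55 ± 0.11 (adjusted p = 2.7e-05). With siRBM39 it rose by 0.28 ± 0.11 in DMSO (adjusted p = 0.0388) and, for 4OHT, by 0.31 ± 0.11 (adjusted p = 0.0176). The calls of SNRPD2 were lost under 7 and 6 of 18 alternatives, among them those that leave out a single library, the adjusted p being 0.136 without replicate 1 of siRBM39-06 in DMSO and 0.162, at a change of 0.14, without the library that stood apart in 4OHT.

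SNRPD3 (chr22:24951926-24978020), Sm D3, the partner of B in the ring, had its largest change with 4OHT. It averaged 49.0 ± 2.61 CPM in DMSO siNT and 69.1 ± 2.30 with 4OHT and siNT, with no overlap and a log2 fold change of 0.49 ± 0.09 (adjusted p = 1.13e-06). With siSF3B1 it averaged 57.1 ± 5.48 CPM in DMSO, a change of 0.22 ± 0.09 (adjusted p = 0.0188) that was not called under 5 of 17 alternatives, among them siSF3B1-13 alone (adjusted p = 0.403). In 4OHT siSF3B1 all libraries lay above all controls, at 77.6 ± 1.68 CPM, but the change of 0.17 ± 0.08 was not called (adjusted p = 0.0692). With siRBM39 it rose by 0.32 ± 0.08 in DMSO (adjusted p = 0.0016) and, for 4OHT, by 0.24 ± 0.08 (adjusted p = 0.0152), the latter not called under 6 of 18 alternatives and 0.10 (adjusted p = 0.13) without the library that stood apart.

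SNRPF (chr12:96252730-96297606), Sm F, averaged 16.2 ± 1.05 CPM in DMSO siNT, 22 ± 2.02 after SF3B1 knockdown and 20.9 ± 3.9 after RBM39 knockdown under DMSO, and neither knockdown group overlapped the controls. Its log2 fold changes were 0.45 ± 0.11 (adjusted p = 0.000231) and 0.37 ± 0.11 (adjusted p = 0.00369), the latter not called under 3 of 18 alternatives. In 4OHT it rose by 0.32 ± 0.11 with siSF3B1 (adjusted p = 0.00564), which was not called under 3 of 17 alternatives, among them siSF3B1-16 alone (adjusted p = 0.111). The 0.28 ± 0.11 with siRBM39 (adjusted p = 0.0232) was not called under 8 of 18 alternatives and was 0.12 (adjusted p = 0.19) without the library that stood apart.

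SNRPE (chr1:203830727-203840280), Sm E, had 116 to 422 counts per library and was tested only in the fit that admits every gene with a count. DMSO siNT libraries held 3.31 to 5.20 CPM of it (median 3.78) and 4OHT siNT libraries 3.10 to 4.23 (3.53). After SF3B1 knockdown the range was 6.4 to 8.53 CPM under DMSO (7.21) and 6.14 to 7.75 under 4OHT (6.95). All siSF3B1 libraries lay above all siNT libraries. In that fit the log2 fold change with siSF3B1 was 0.95 ± 0.16 in DMSO (adjusted p = 1.53e-06) and, for 4OHT, 0.93 ± 0.16 (adjusted p = 2.46e-06). With siRBM39 it was 0.24 ± 0.16 in DMSO (adjusted p = 0.29), and with 4OHT -0.03 ± 0.17 (adjusted p = 0.925). The 4OHT siRBM39 group ranged from 3.45 to 13.3 CPM, with a change of 0.45 ± 0.17 from its controls (adjusted p = 0.026). Leaving out the library that stood apart, its highest value was 4.77 CPM and the change was 0.10 ± 0.10 (adjusted p = 0.434).

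Of the U1 proteins, SNRPA (chr19:41256542-41271294), which encodes the A protein of the U1 snRNP that binds a stem-loop of U1 RNA, was the only tested gene of the set that fell with 4OHT. It ran from 43.6 to 47.1 CPM in DMSO siNT (median 45.7) and from 29.5 to 34.4 in 4OHT siNT (31.3), without overlap, and its log2 fold change was -0.52 ± 0.09 (69.6% of the control, adjusted p = 2.92e-06). It rose with siSF3B1 in DMSO by 0.25 ± 0.09 (adjusted p = 0.0144), which was not called under 5 of 17 alternatives, among them siSF3B1-13 alone at 0.15 (adjusted p = 0.264). The change of 0.15 ± 0.09 with siSF3B1 in 4OHT and that of 0.18 ± 0.09 with siRBM39 in DMSO were not called. With siRBM39 in 4OHT it rose by 0.38 ± 0.09 (adjusted p = 0.000658), and by 0.22 ± 0.06 (adjusted p = 0.00215) without the library that stood apart.

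SNRPC (chr6:34725282-34741634), which encodes the C protein that steadies the pairing of U1 with the 5′ splice site, was at the same level in both siNT groups within their spread, 45.6 ± 2.90 CPM in DMSO and 46.7 ± 3.01 in 4OHT, with a 95% interval of the log2 difference from -0.13 to 0.20. SF3B1 knockdown raised it to 70.8 ± 4.64 CPM in DMSO and 63.8 ± 3.49 in 4OHT, above every control library, by 0.64 ± 0.08 (adjusted p = 5.58e-09) and 0.45 ± 0.08 (adjusted p = 5.85e-06). RBM39 knockdown raised it by 0.32 ± 0.08 in DMSO (adjusted p = 0.00146) and, for 4OHT, by 0.29 ± 0.08 (adjusted p = 0.00329). In 4OHT without the library that stood apart the rise was 0.17 ± 0.06 (adjusted p = 0.0213), but without all replicates numbered 4 it was not called (0.15, adjusted p = 0.0747).

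The genes of the U2 pair moved in opposite directions with SF3B1 knockdown. SNRPA1 (chr15:101821715-101835487) encodes the A′ protein of the U2 snRNP, which binds the B″ protein and helps it to bind U2 RNA. DMSO siNT libraries held 16.2 to 20.6 CPM of it (median 18) and 4OHT siNT libraries 52.5 to 59.0 (55.2). After SF3B1 knockdown the range was 12.6 to 15.1 CPM under DMSO (14.1) and 18.4 to 21.5 under 4OHT (19.9). The 4OHT siNT libraries lay far above all others of these groups, both siSF3B1 groups lay below the siNT group of their treatment, and 4OHT siSF3B1 overlapped DMSO siNT. With 4OHT the log2 fold change was 1.62 ± 0.06 (307% of the control, adjusted p = 5.68e-29), the largest of the set.

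SF3B1 knockdown lowered SNRPA1 by 0.37 ± 0.06 in DMSO (77.4% of the control, adjusted p = 2.75e-07) and by 1.48 ± 0.06 in 4OHT (35.8%, adjusted p = 8.85e-27) on the log2 scale. The difference between these effects, tested as an interaction, was -1.11 ± 0.08 (adjusted p = 4.3e-15). With siRBM39 it ran from 20.2 to 29.4 CPM in DMSO (median 22.8) and from 41 to 50.7 in 4OHT (48.2), the latter wholly below 4OHT siNT. It rose by 0.39 ± 0.06 in DMSO (adjusted p = 2.62e-07) and fell by 0.25 in 4OHT (SE 0.06, adjusted p = 0.000209), or by 0.27 without the library that stood apart (adjusted p = 6.93e-05). The interaction was -0.64 ± 0.08 (adjusted p = 7.8e-08), and -0.66 ± 0.08 (adjusted p = 2.28e-08) without that library. The direction of each of these 7 differences was the same under every alternative run, and the fall with siRBM39 in 4OHT lost its call only under a minimum change of 1.2-fold.

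SNRPB2 (chr20:16710606-16723209) encodes the B″ protein of the U2 snRNP. DMSO siNT libraries held 37.9 to 46.1 CPM of it (median 39.9) and 4OHT siNT libraries 42.8 to 46.1 (44.1). After SF3B1 knockdown the range was 57.4 to 72.7 CPM under DMSO (64.7) and 68.6 to 77.5 under 4OHT (70.3). The siNT groups overlapped and the siSF3B1 groups lay above both. It rose with siSF3B1 by 0.68 ± 0.05 in DMSO (adjusted p = 4.17e-18) and, for 4OHT, by 0.69 ± 0.05 (adjusted p = 1.45e-18), and the interaction was 0.01 ± 0.06 with a 95% interval from -0.11 to 0.14. With 4OHT it rose by 0.13 ± 0.05 (adjusted p = 0.00908) and with siRBM39 in DMSO by 0.19 ± 0.05 (adjusted p = 0.000673), neither of which was called with siNT1 alone (adjusted p = 0.214 and 0.0738), nor the former without the replicates numbered 4 (adjusted p = 0.085). The rise by 0.11 ± 0.05 with siRBM39 in 4OHT (adjusted p = 0.0355) was not called under 11 of 18 alternatives and was 0.08 without the library that stood apart (adjusted p = 0.0998).

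The ratio of SNRPA1 to SNRPB2 CPM, looked at after their levels had been seen and not corrected for length, therefore changed between groups. With siNT it was 0.446 ± 0.0269 under DMSO and 1.25 ± 0.0435 under 4OHT (SD, n = 8 each), and with siSF3B1 it was 0.216 ± 0.00828 under DMSO and 0.278 ± 0.0132 under 4OHT. With siRBM39 it was 0.512 ± 0.0464 in DMSO and 0.98 ± 0.106 in 4OHT. The ranges of the 4 groups without siRBM39 did not overlap, being 1.2 to 1.34 for 4OHT siNT, 0.399 to 0.472 for DMSO siNT, 0.264 to 0.302 for 4OHT siSF3B1 and 0.202 to 0.226 for DMSO siSF3B1.

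SNRPB2 also held 2 of the events called in the main splicing test. Its in-frame exon (HsaEX6077280) was included in nearly all transcripts of control cells, with a PSI of 98.5 to 100 in DMSO siNT and of 100 in each 4OHT siNT library. In siSF3B1 cells it ran from 92.7 to 96.6 in DMSO (median 95.6) and from 92.6 to 98.6 in 4OHT (94.9), on 91 to 169 reads per library, and did not overlap the controls. In limma on logit PSI it fell by 5.02 points in 4OHT (adjusted p = 3.43e-10, where 23.8% of the 12921 exons and introns tested were called). In DMSO it fell by 4.45 points (adjusted p = 4.68e-08, with 20.4% of events called), under the minimum difference of 5. The call in 4OHT also lay under that minimum with siSF3B1-16 alone, at a fall by 3.99 points, and without the replicates numbered 1 or 3, at -4.56 and -4.65 points. With siRBM39 the differences were 0.34 points in DMSO and -0.78 in 4OHT (-0.29 without the library that stood apart), none past the threshold. The difference between siSF3B1 and siRBM39 was -4.79 points in DMSO (adjusted p = 2.27e-09, where 17.8% of exons and introns were called) and -4.24 in 4OHT (adjusted p = 1.11e-07, 20.5% called), or -4.73 without that library, again under the minimum difference.

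The other SNRPB2 event is the choice of the splice donor that ends its first, 5′ exon (HsaALTD0006111), where the distal donor adds 100 nt. The distal donor was used in 84.3% to 95.5% of reads in DMSO siNT (median 88.0) and in 93.6% to 100% in DMSO siRBM39 (98.4), on 22 to 58 and 53 to 80 reads per library, and the groups overlapped. Its use rose by 8.42 points with siRBM39 in DMSO (adjusted p = 0.0028, where 6.32% of 918 alternative sites were called), which was lost without the replicates numbered 2 (adjusted p = 0.0852). With siRBM39 in 4OHT the difference was 1.33 points (adjusted p = 1.00), or 0.81 without the library that stood apart, where 5.12% of sites were called, the 4OHT siNT1 libraries averaging 91.4% and the 4OHT siNT2 libraries 98.6%. Between siSF3B1 and siRBM39 in DMSO it differed by -5.78 points (adjusted p = 0.0117, 12.5% called), which was not called under 5 of 15 alternatives, among them siSF3B1-13 alone (-3.63 points), and in 4OHT by -3.29 points (12.1% called), or -2.77 without the library that stood apart. With siSF3B1 against siNT it was not called in either treatment, where 10.3% of sites were called in DMSO and 10.6% in 4OHT.

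In SNRPD2 an exon of 115 nt in the 5′ UTR (HsaEX0060713, chr19:46192491-46192605 in GRCh37, minus strand) was included in 0% to 3.92% of reads in DMSO siNT (median 1.56) and in 5.03% to 10.3% in DMSO siSF3B1 (6.54), without overlap but on only 8 to 47 reads per library. It rose by 5.08 points (adjusted p = 0.000187), just past the minimum difference, and lay under it, at 4.18 to 4.71 points, with siSF3B1-16 alone, with siNT2 alone and without the replicates numbered 1 or 2. It was higher by 3.48 points with siSF3B1 in 4OHT (adjusted p = 0.00307), by 2.87 with siRBM39 in DMSO (adjusted p = 0.0405, where 5.65% of exons and introns were called) and by 4.83 with siRBM39 in 4OHT (adjusted p = 0.00142, 6.34% called), or 4.30 without the library that stood apart, each under the minimum difference.

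The remaining events gave no call in the main splicing test. Of the 66 listed, 6 passed the filters of the main test, 27 varied by under 5 PSI points over all libraries, 16 fell under the minimum coverage score in some library, 10 were the first site of a set counted once and 7 had no PSI in some library. The 6 tested are the 3 described above that were called and, uncalled in all 9 contrasts, an exon of SNRPD3, an intron of SNRPA and a donor of SNRPA. The SNRPD3 exon of 193 nt, HsaEX0060715, was included at 94.6% to 100%. With 4OHT in siNT cells none of the 6 was called, where 0.913% of all exons and introns and 0.327% of alternative sites were. With no minimum range or difference 33 of the events could be tested and 2 were past the threshold in that comparison, the SNRPB exon and the intron around it. Of all exons and introns 0.396% were. With siSF3B1 5 of the 33 were past it in DMSO and 4 in 4OHT, where 15.2% and 18.7% of all exons and introns were. With siRBM39 3 and 2 were, where 3.05% and 3.11% of all exons and introns were.

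The effect of a knockdown differed between 4OHT and DMSO for few genes of the set. For siSF3B1 the interaction was called in 2 of 9, SNRPA1 and SNRPD1, both negative, where 19.9% of all genes were lower and 37.8% were called either way. SNRPD1 rose by less in 4OHT, with an interaction of -0.44 ± 0.14 (adjusted p = 0.0111), which was not called with siNT1 alone (adjusted p = 0.195), with siSF3B1-13 alone (adjusted p = 0.0711) or without the replicates numbered 1 (adjusted p = 0.0572). The interaction of SNRPB, -0.37 ± 0.17, was not called (adjusted p = 0.0815). For siRBM39 it was called for SNRPA1 only, where 6.87% of all genes were lower and 14.1% were called either way. Without the library that stood apart 4 were called, all negative, adding SNRPB at -0.42 ± 0.12 (adjusted p = 0.00841), SNRPD1 at -0.35 ± 0.09 (adjusted p = 0.00362) and SNRPD3 at -0.22 ± 0.08 (adjusted p = 0.0333), where 11.9% of all genes were lower.

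Set against each other, siSF3B1 gave higher levels than siRBM39 for 5 of the 9 genes in DMSO and a lower level of SNRPA1, where 33.6% of all genes were higher and 34.1% lower (67.7% either way). The 5 were SNRPD1 at 0.81 ± 0.10 (adjusted p = 6.93e-10), SNRPB at 0.53 ± 0.12 (adjusted p = 0.000131), SNRPB2 at 0.49 ± 0.04 (adjusted p = 2.32e-13), SNRPD2 at 0.35 ± 0.11 (adjusted p = 0.00563) and SNRPC at 0.31 ± 0.08 (adjusted p = 0.00113). SNRPA1 was lower in siSF3B1 by 0.76 in DMSO (SE 0.06, adjusted p = 9.59e-16) and by 1.23 in 4OHT (SE 0.06, adjusted p = 1.6e-23), or by 1.21 in 4OHT without the library that stood apart. For SNRPD3 the difference in DMSO was -0.10 with a 95% interval from -0.27 to 0.06, and for SNRPF it was 0.08 with an interval from -0.13 to 0.28. The SNRPD2 difference was not called with siSF3B1-16 alone or siRBM39-06 alone (adjusted p = 0.0729 and 0.0623). In 4OHT 3 were higher (SNRPB, SNRPD1 and SNRPB2) and 2 lower (SNRPA1 and SNRPA), where 33.7% of all genes were higher and 37.7% lower (71.4% either way), and the call of SNRPB was lost under 4 of 18 alternatives and that of SNRPA under 9. Without the library that stood apart 6 were higher, adding SNRPC, SNRPD2 and SNRPF, SNRPA1 stayed lower and SNRPA at -0.07 was not called, where 76.2% of all genes were called.

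Of other proteins of the U1 and U2 snRNPs, Sm G and the Sm B relative N included, 17 of 20 were tested. With siSF3B1 11 rose and 4 fell in each treatment, with medians of 0.39 in DMSO and 0.43 in 4OHT, and with siRBM39 in DMSO 11 rose and none fell. Of all genes tested 36.5% rose and 36.2% fell with siSF3B1 in DMSO, 39.4% and 37.6% with siSF3B1 in 4OHT, and 23.9% and 22.2% with siRBM39 in DMSO. The largest rise with siSF3B1 was that of DDX46, the helicase that acts on U2 at the branch point, which went from 60.5 ± 2.92 to 149 ± 16.6 CPM in DMSO (log2 fold change 1.30 ± 0.06, adjusted p = 2.32e-23). With siRBM39 it was that of LUC7L, a U1-associated protein, by 0.84 ± 0.12 in DMSO (adjusted p = 1.65e-07). With 4OHT 8 rose and 2 fell, where 39% of all genes rose and 39.1% fell, with a median of 0.16, led by PUF60, a partner of U2AF, at 0.49 ± 0.11, and by the SF3a subunit SF3A2 at -0.48 ± 0.09.

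The list of U4/U6.U5 tri-snRNP proteins held 18 names, of which SNU13 and NHP2L1 stand for the same gene, and 16 were tested. With siSF3B1 13 rose and 3 fell in DMSO and 11 rose and 3 fell in 4OHT, with medians of 0.47 and 0.38, where 72.7% and 77.0% of all genes were called. PRPF3, a U4/U6 protein, rose most, from 31 ± 1.74 to 111 ± 4.39 CPM in DMSO (log2 fold change 1.84 ± 0.04, adjusted p = 1.68e-37). With 4OHT 8 rose and 3 fell, where 78.1% of all genes were called, and PRPF4, the partner of PRPF3, rose most, by 0.91 ± 0.03. With siRBM39 in DMSO 9 rose and 2 fell, where 46.1% of all genes were called. Of the LSM proteins, which apart from LSM1 form the ring on U6, 6 of 8 were tested. Here siSF3B1 raised 4 and lowered LSM7 in each treatment, so that 5 of 6 were called against the same 72.7% and 77.0%. Of the proteins of the minor U11/U12 snRNP 8 of 9 were tested, with medians of 0.18 in DMSO and 0.26 in 4OHT for siSF3B1.

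The factors that assemble, cap and import the Sm ring were tested in 15 of 16 cases. With 4OHT 10 rose and 3 fell (median 0.34), where 39% of all genes rose and 39.1% fell. With siSF3B1 12 rose and 1 fell in DMSO, and 8 rose and 3 fell in 4OHT, where 36.5% of all genes rose and 36.2% fell in DMSO and 39.4% and 37.6% in 4OHT. With siRBM39 in DMSO 2 rose and 3 fell, where 23.9% of all genes rose and 22.2% fell. WDR77, the partner of PRMT5 in the complex that methylates Sm proteins, had the largest rise with 4OHT and the largest fall with either knockdown among them. It rose from 42.4 ± 2.58 CPM in DMSO siNT to 80.8 ± 3.9 in 4OHT siNT (0.93 ± 0.07, adjusted p = 1.75e-17), and fell with siSF3B1 to 21.7 ± 2.13 CPM in DMSO (-0.97 ± 0.07) and 25.5 ± 3.16 in 4OHT (-1.67 ± 0.07, adjusted p = 3.44e-26). With siRBM39 in DMSO it fell by 0.63 (SE 0.07, adjusted p = 4.95e-11), where SNRPA1 rose.

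Most transcripts of the set varied together from library to library. Over the 48 libraries the Pearson r of log2 CPM with SNRPB was 0.81 to 0.89 for SNRPB2, SNRPC, SNRPD1, SNRPD2, SNRPE and SNRPF, was 0.66 for SNRPD3 and was 0.07 for SNRPA and -0.09 for SNRPA1. In the other 47 libraries, leaving out the one that stood apart, the first 6 gave 0.78 to 0.88, SNRPD3 0.60, SNRPA -0.05 and SNRPA1 -0.17. These values are a description, as the libraries fall into groups and share their scaling. The 5 genes outside the set whose profile was most like the mean of the set were MRPL20 (r = 0.946), SF3B5 (0.944), TRAPPC2L (0.942), C11orf59 (0.941) and PRPF6 (0.941), of which SF3B5 is a subunit of SF3b and PRPF6 a tri-snRNP protein. Over the 47 libraries without the one that stood apart the first 5 were CINP (r = 0.954), PRPF6 (0.949), SSBP1 (0.946), NDUFC2 (0.941) and C11orf84 (0.940), and of the former 5 only PRPF6 stayed among them, while MRPL20 and SF3B5 had ranks 7 and 10.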

How the data were processed

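RNA-seq of 48 libraries was analysed, grouped by their sample titles. The authors aligned reads with vast-tools to an annotation named hg19 and deposited, per gene and library, raw counts and cRPKM, an RPKM corrected for mappability. For each splicing event the authors deposited PSI as a percent, with a quality string (coverage score, corrected inclusion and exclusion reads, and for introns a balance p-value). Their normalised CPM table was not used. Event coordinates lie in GRCh38 although hg19 is named; gene loci and sequences come from GENCODE on GRCh37. The columns of per-sample values without a sample numbered 0.

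Counts were tested in R 4.3.3 with edgeR 4.0.16 (quasi-likelihood F test, TMM, one mean for each of 6 groups) on the genes whose counts sum to 10000 or more, with Benjamini-Hochberg adjustment over all 9991 genes and calls at 0.05. SE is the fold change divided by the root of F. PSI was tested with limma 3.58.1 on the logit of 0.01 plus 0.98 of its fraction, on events that every library covers at VLOW or better, that span 5 points or more over the libraries and, if introns, have a balance p from 0.05 up, called at a difference of at least 5 points. Alternative sites had a fit of their own, without the first site of each set. Profiles were correlated on log2(CPM + 0.5). Alternatives were limma-voom, DESeq2 1.42.0 and its size factors, other filters and minimum changes, only the groups compared, one group per siRNA, single siRNAs, a replicate block and each replicate number left out. Leaving out single libraries, the splicing fit with no minimum range or difference, and the fit of SNRPE without 1 library, were chosen after seeing the data. Summaries and plots were made in Python 3.11.15 (numpy 2.4.6, pandas 2.3.3, matplotlib 3.10.9). Both tests were tested on simulated data with known changes.

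Depth ran from 31467221 to 52734636 counts. The 72 pairs of replicates of a siRNA and treatment differed by more than sampling noise (chi-square over its degrees of freedom 2 or more), and each was kept. Intervals of log2 differences come from the SE, which covers the spread between these libraries, while limits on reads cover counting error only. The genes and the pathway lists were chosen with earlier results of these data known. Named are the 10 genes, SF3B1 and RBM39, genes of each list among those with its largest called rise and fall per comparison, the 5 genes most like the set, and events called in any of 9 contrasts. The SNRPB exon, its intron and the ratio of SNRPA1 to SNRPB2 were chosen after their values were seen.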

Additional observations from a re-analysis of the deposited data

Results flagged for a closer look

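In a group of 8 libraries a value was picked out where the gap between the highest or lowest library and its nearest neighbour was a large share of the group's range (Dixon's criterion at the 95% level), which chance does in about 1 in 20 groups. Of 89 groups examined 18 had such a library, and 8 of these were replicate 4 of siRBM39-08 in 4OHT, the library that stood apart over all genes. It held 72.4 CPM of SNRPA, 166 of SNRPB, 89.0 of SNRPC, 66.9 of SNRPD1, 120.1 of SNRPD2, 134 of SNRPD3, 13.3 of SNRPE and 38.2 of SNRPF, each the highest of its group. For SNRPB the next highest library of the group had 87.2 CPM, and for SNRPE 4.77 CPM. SNRPA1 and SNRPB2 had no such value in that group.

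Replicate 1 of siNT1 in DMSO was highest for SNRPB2 (46.1 CPM), SNRPC (51.8 CPM) and SNRPE (5.20 CPM), and replicate 1 of siSF3B1-13 in DMSO was highest for SNRPC (81.8 CPM), SNRPD2 (88.4 CPM) and the SNRPD2 5′ UTR exon (PSI 10.3). Replicate 2 of siSF3B1-16 in DMSO was lowest for SNRPD1 (53.3 CPM). The lowest PSI of the SNRPB2 exon in DMSO siRBM39 was 98.7, in the only library of that group under 100, the lowest use of the SNRPB2 distal donor there was 93.6%, and the lowest PSI of the SNRPD3 exon in 4OHT siRBM39 was 94.6.

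The effect of a knockdown differed between 4OHT and DMSO by the interaction test in edgeR for SNRPA1 with siSF3B1 (-1.11 on the log2 scale, adjusted p = 4.3e-15) and with siRBM39 (-0.64, adjusted p = 7.8e-08), and for SNRPD1 with siSF3B1 (-0.44, adjusted p = 0.0111).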

How the results depend on the processing

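siRBM39 against siNT in 4OHT called 8 of 9 genes, against 3 with only the groups compared, 5 with siNT1 alone, 3 with siNT2 alone, 5 with a minimum change of 1.2-fold, 4 without the library that stood apart and 3 to 7 without a replicate number. Of all 9991 genes 5639 were called there. In the same order the alternatives called 4711, 4386, 4122, 3968, 6013 and 4649 to 5399 of them. siRBM39 in DMSO called 8, against 3 with siRBM39-08 alone, 4 with siNT1 alone and 5 to 9 without a replicate number. Over all genes the calls were 4605, against 4183, 3235 and 3344 to 5042. The interaction of siSF3B1 gave 2, against 4 with only the groups compared, 1 with siSF3B1-13 alone, 1 with siNT1 alone and 1 to 3 without a replicate number. Over all genes the calls were 3781, against 5607, 3572, 2331 and 2617 to 3758. The interaction of siRBM39 gave 1, against 4 with siRBM39-06 alone, 4 without the library that stood apart and 1 to 4 without a replicate number. Over all genes the calls were 1413, against 3706, 2499 and 657 to 2123. siSF3B1 against siRBM39 in 4OHT gave 5, against 3 with only the groups compared, 3 with siSF3B1-16 alone and 4 to 7 without a replicate number. Over all genes the calls were 7133, against 6431, 6345 and 6519 to 7196. With a minimum of 5 counts in each library, a fit that tests SNRPE as well, it gave 8. There 8464 of 12145 genes were called. The cause of these shifts was not tested.

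Counts of events called were small. With no minimum range or difference 33 events were tested, alternative sites included. For 4OHT 2 were called, where 0.396% of all exons and introns were. For siSF3B1 5 were called in DMSO and 4 in 4OHT, where 15.2% and 18.7% of all exons and introns were. For siRBM39 the counts were 3 and 2, where 3.05% and 3.11% were called. For siSF3B1 against siRBM39 they were 3 and 2, with no share over all events at hand. With no minimum difference the counts among the 6 events tested were 2, 2, 2 and 1 for the 4 knockdown comparisons and 2 and 1 for siSF3B1 against siRBM39. With a minimum of 10 points they were 0. No count was had in DMSO with a coverage score of at least LOW, which leaves out the SNRPD2 exon and the SNRPB2 donor that carry the calls there, or in any comparison with PSI from 1 to 99 and the plain logit, which leaves none of the events. In DMSO siSF3B1 gave 2 with siSF3B1-13 alone, 0 with siSF3B1-16 alone and 0 with siNT2 alone, and in 4OHT 2, 0 and 2. siRBM39 in 4OHT gave 1 with siRBM39-08 alone and 1 with siNT1 alone, and siSF3B1 against siRBM39 gave 0 with siRBM39-08 alone in DMSO and 1 with siSF3B1-13 alone or siRBM39-08 alone in 4OHT. Without a replicate number the counts were 0 to 1 for the knockdown comparisons and for siSF3B1 against siRBM39 in DMSO, and 0 elsewhere.

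Changes of sign were confined to differences that were not called. SNRPA turned to -0.04 with siSF3B1-13 alone (siSF3B1 against siRBM39, DMSO), SNRPC to -0.03 with siNT1 alone (4OHT), and SNRPD1 to -0.07 with siRBM39-06 alone and without the library that stood apart (siRBM39, 4OHT), with -0.07 to 0.16 without a replicate number. Between siSF3B1 and siRBM39, SNRPD3 turned to 0.01 with siSF3B1-16 alone and 0.00 with siRBM39-08 alone in DMSO, and to 0.01 with siRBM39-06 alone and 0.07 without the library that stood apart in 4OHT (-0.13 to 0.07 without a replicate number). SNRPF turned to -0.01 with siSF3B1-13 alone and -0.04 with siRBM39-06 alone in DMSO (-0.01 to 0.15 without a replicate number), and to -0.04 with siSF3B1-16 alone and -0.01 with siRBM39-08 alone in 4OHT (-0.03 to 0.23).

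Over all pairs of groups, deviations of libraries with the same replicate number had a median r of 0.0116 (-0.906 to 0.811), against 0.000844 for other numbers. By comparison the median ran from -0.019 (siSF3B1 against siRBM39 in 4OHT) to 0.13 (siSF3B1 against siNT in DMSO). In DMSO the snRNP transcripts lay high in replicate 1 of every siRNA (median log2 difference 0.02 to 0.36) and low in replicate 2 (-0.25 to -0.01). In 4OHT they did not. Whether the numbers pair the libraries is therefore not settled. With the replicate block the counts of genes called were 6, 9, 7, 8 and 8 in the 5 comparisons with siNT, 2 and 1 for the interactions and 6 and 5 between the knockdowns, the same as without it. Events with few reads limit the splicing results, as do genes such as SNRPE that lie near the count minimum.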
